A study of Homo sapiens with 9 samples.

Results

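The HOX gene clusters were described in the parental human mammary epithelial line MCF10A and in 2 lines derived from it. Members were taken by symbol: every row of the count table named HOXA, HOXB, HOXC or HOXD followed by a number, which gave 39 genes of 60199 symbols, with 11 in HOXA, 10 in HOXB, 9 in HOXC and 9 in HOXD. Poly-A RNA was sequenced from 3 libraries of MCF10A-CT (CT), 3 of MC26 and 3 of M1B26, and the values were raw read counts per gene. CT cells were untreated and are labelled as not transformed. MC26 was made without a sort, whereas the founders of M1B26 had been sorted on BMPR1B, a type I receptor of BMP ligands. Both lines, labelled as transformed, were cultured with recombinant human BMP2 and IL6. The CDKN2A deletion and the MYC amplification of MCF10A are shared by all 3 lines. As M1B26 was expanded from 3 soft-agar clones, clonal selection, the sort and the cytokines cannot be told apart in a comparison with CT, and nothing in the labels ties the libraries of a line to separate cultures, so p-values may measure a technical spread.

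HOX genes encode homeodomain transcription factors that give cells their position along the head-to-tail axis of the embryo. They lie in 4 clusters that arose by duplication, so that genes with the same number on different clusters (a paralog group) resemble each other most. Within a cluster, low-numbered (anterior) genes are classically switched on early and by retinoic acid, trithorax proteins keep active genes on, polycomb proteins keep silent genes off, and TALE proteins such as PBX and MEIS bind DNA together with HOX proteins. In the mouse mammary gland the group 9 genes Hoxa9, Hoxb9 and Hoxd9 act together in the growth of the gland during pregnancy.

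All 39 members were found in the GENCODE v44 annotation of GRCh38. HOXA lies on the minus strand of chromosome 7, and HOXB spans chr17:48528526-48728750 on the minus strand, HOXC chr12:53938831-54056030 on the plus strand and HOXD chr2:176092721-176190907 on the plus strand. The RefSeq promoter table (GRCh38.p14, 250 bases before to 50 bases after a start) held 20 members in 26 distinct windows of 300 bases. The windows of paralog group 4 are shown because its members differed: HOXA4 was expressed without a called change, HOXC4 fell in both derived lines, and HOXD4 had no count in any library. No window was in the table for HOXB4. Each is written 5′ to 3′ on the strand of the gene, with CpG dinucleotides in capitals. HOXA4 lies on the minus strand at chr7:27130708-27131007 with 27 CpG dinucleotides, HOXC4 on the plus strand at chr12:54016638-54016937 with 15 and HOXD4 on the plus strand at chr2:176151300-176151599 with 4. The median was 22.5 over the member windows and 14 over all 34943 windows of the table, so the HOXD4 window was poor in CpG and the HOXA4 window rich. The HOXC4 window is also the one listed for HOXC5.
HOXA4: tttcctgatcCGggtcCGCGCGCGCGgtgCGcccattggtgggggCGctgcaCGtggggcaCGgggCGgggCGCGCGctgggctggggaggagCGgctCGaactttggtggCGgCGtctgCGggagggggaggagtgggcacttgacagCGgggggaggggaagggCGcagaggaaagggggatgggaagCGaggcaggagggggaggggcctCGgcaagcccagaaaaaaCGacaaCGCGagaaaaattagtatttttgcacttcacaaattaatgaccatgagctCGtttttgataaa
HOXC4: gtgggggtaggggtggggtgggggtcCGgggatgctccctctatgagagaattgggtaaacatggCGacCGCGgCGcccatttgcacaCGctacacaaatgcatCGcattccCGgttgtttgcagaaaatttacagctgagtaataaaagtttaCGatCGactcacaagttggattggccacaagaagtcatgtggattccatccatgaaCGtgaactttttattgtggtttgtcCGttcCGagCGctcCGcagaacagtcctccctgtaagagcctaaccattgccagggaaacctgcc
HOXD4: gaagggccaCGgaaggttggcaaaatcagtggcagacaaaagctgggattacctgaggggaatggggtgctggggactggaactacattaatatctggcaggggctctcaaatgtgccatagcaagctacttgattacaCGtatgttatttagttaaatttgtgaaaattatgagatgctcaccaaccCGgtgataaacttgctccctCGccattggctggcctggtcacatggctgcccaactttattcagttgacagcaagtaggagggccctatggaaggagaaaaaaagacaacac

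Short motifs, none of which contains another, were searched in the windows on both strands. The STAT motif TTCNNNGAA was in 0 of the 26 member windows and in 7.7% of all windows, and the nuclear receptor half-site AGGTCA in 0 and 13.8%. The GC-rich BMP-SMAD motif GGCGCC was in 7 member windows, which belong to HOXA3, HOXA9, HOXA10, HOXD11 and the pair HOXC4 and HOXC5, and in 19.2% of all. The HOX-PBX motif TGATTNAT was in the windows of HOXA2 and HOXD11 and in 2.8% of all. A match is a run of letters, not a binding site.

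The libraries held 21425118 to 80076597 counts, with the shallowest and the deepest both among CT. Levels are given as CPM, counts normalised to library sizes scaled by TMM, and 3 counts were taken as the detection floor of a library, which is 0.0366 to 0.131 CPM and covers counting error only. KRT5, a basal keratin, was at mean CPM of 6590 in CT, 6260 in MC26 and 4920 in M1B26, and KRT14, another basal keratin, was at 54.1, 1100 and 548 in the same order. Of the luminal keratins, KRT18 was at 534, 436 and 545 CPM, KRT8 at 372, 202 and 309, and KRT19 at no more than 0.214 in any line. EPCAM, an epithelial adhesion molecule, was at 70.4, 14.8 and 72.1, so the libraries carried epithelial RNA with both basal and luminal keratins. The summed CPM of 10 mammary epithelial markers was 7520 to 9310 in CT, 8440 to 10500 in MC26 and 7400 to 7710 in M1B26. Of the other cell types, 6 fibroblast markers summed to 37.4 to 37.8, 17.1 to 56.8 and 28.5 to 39.7 CPM in the same order. This sum was mostly DCN in CT, at a mean of 29.0 CPM with no called change in either line, and hid rises in M1B26 over CT of LUM, from 0.108 to 5.11 CPM (48.3-fold, adjusted p = 7.88e-06), and of COL1A1, from 7.73 to 15.4 (1.98-fold, adjusted p = 1.63e-04). LUM reached the count filter described below in 0 CT, 1 MC26 and 3 M1B26 libraries, so it was tested through the line in which it was high. COL1A2 and COL3A1, also fibroblast markers, had 3 counts each in all libraries together. In the same order of lines, 5 leukocyte markers summed to 7.03 to 11.1, 9.75 to 17.9 and 34.0 to 47.9, and 4 endothelial markers to 7.53 to 7.78, 1.02 to 1.39 and 2.84 to 4.91. The leukocyte sum was nearly all CD14, since CD3E had 0 counts and PTPRC 5 counts in all libraries together. PECAM1 and KDR made up the endothelial sum, with CDH5 and VWF at mean CPM of at most 0.0647. The part of these markers in the results on HOX genes was not tested.

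HOXA and HOXC made up most of the HOX RNA, HOXB rose in M1B26 and HOXD was close to undetected at this depth. The summed CPM of HOXA was 63.5, 58.3 and 64.5 in CT, 53.8, 59.0 and 58.2 in MC26 and 59.0, 61.3 and 64.4 in M1B26. CT overlapped both derived lines, and MC26 replicate 1 was the lowest library. The HOXC sum was 45.3, 37.9 and 44.8 CPM in CT, 63.2, 54.7 and 51.7 in MC26 and 40.9, 43.4 and 42.0 in M1B26. Every MC26 library was above every library of the other lines. The HOXB sum was 7.52, 6.77 and 7.32 CPM in CT, 11.1, 10.0 and 8.80 in MC26 and 23.4, 25.9 and 24.0 in M1B26. The 3 lines did not overlap, and the mean of M1B26 was 3.39 times that of CT. In bulk RNA, more cells with HOXB transcripts and more transcripts per cell cannot be told apart. The HOXB share of the HOX CPM was thus 6.43% for CT, 8.09% for MC26 and 19.1% for M1B26, while the sum over all 39 genes stayed between 103 and 131 CPM in every library.

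**Figure D1:**
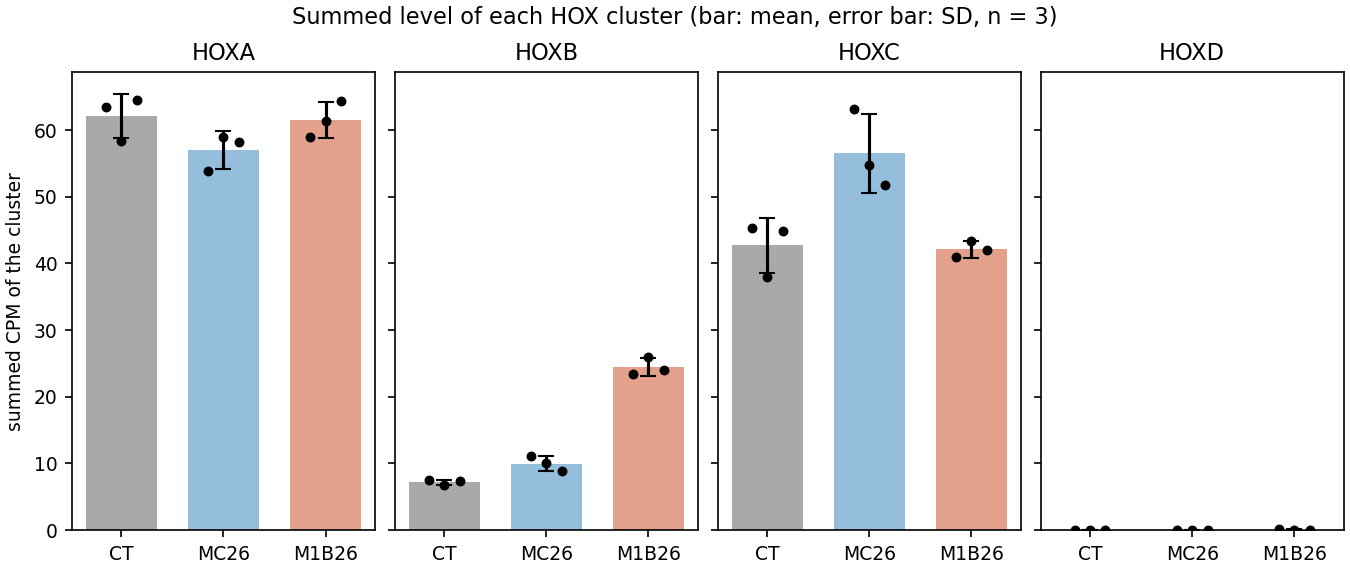
Summed CPM of the HOXA, HOXB, HOXC and HOXD genes, with 1 dot per library, bars for the mean of the 3 libraries of a line and error bars for the SD. HOXB stands at 7.20 ± 0.387 in CT, 9.99 ± 1.17 in MC26 and 24.4 ± 1.35 in M1B26 (mean ± SD, n = 3), HOXC is highest in MC26 and HOXD lies on the axis.

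Levels of different genes were compared per kilobase of exonic length. HOXA5, a central gene needed for lung development, led in CT with 10.4 ± 1.03 CPM per kb (SD, n = 3) and in M1B26 with 7.39 ± 0.294. It was followed in CT by HOXC8 at 5.52 ± 0.429, HOXA9 at 4.23 ± 0.179 and HOXC9 at 4.05 ± 0.733, of which HOXA9 and HOXC9 differed by less than the SD of HOXC9. In MC26 the first place went to HOXC13 at 7.64 ± 1.78 CPM per kb, within 1 SD of HOXA5 at 6.51 ± 1.33. HOXB6 stood at 0.597 CPM per kb in CT, 1.81 in MC26 and 4.47 ± 0.363 in M1B26. This took it from rank 17 of the 39 genes to rank 11 and rank 4, next to HOXA9 at 4.94 ± 0.340 and HOXC9 at 4.89 ± 0.131. Exonic bases shared with neighbours make some of these values uncertain: 67.3% of HOXC5 is shared with readthrough models on its own strand, and 62.5% of HOXA7 and 39.3% of HOXA6 lie opposite HOXA-AS3. The strand setting of the counting is not given in the sources used here.

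**Figure D2:**
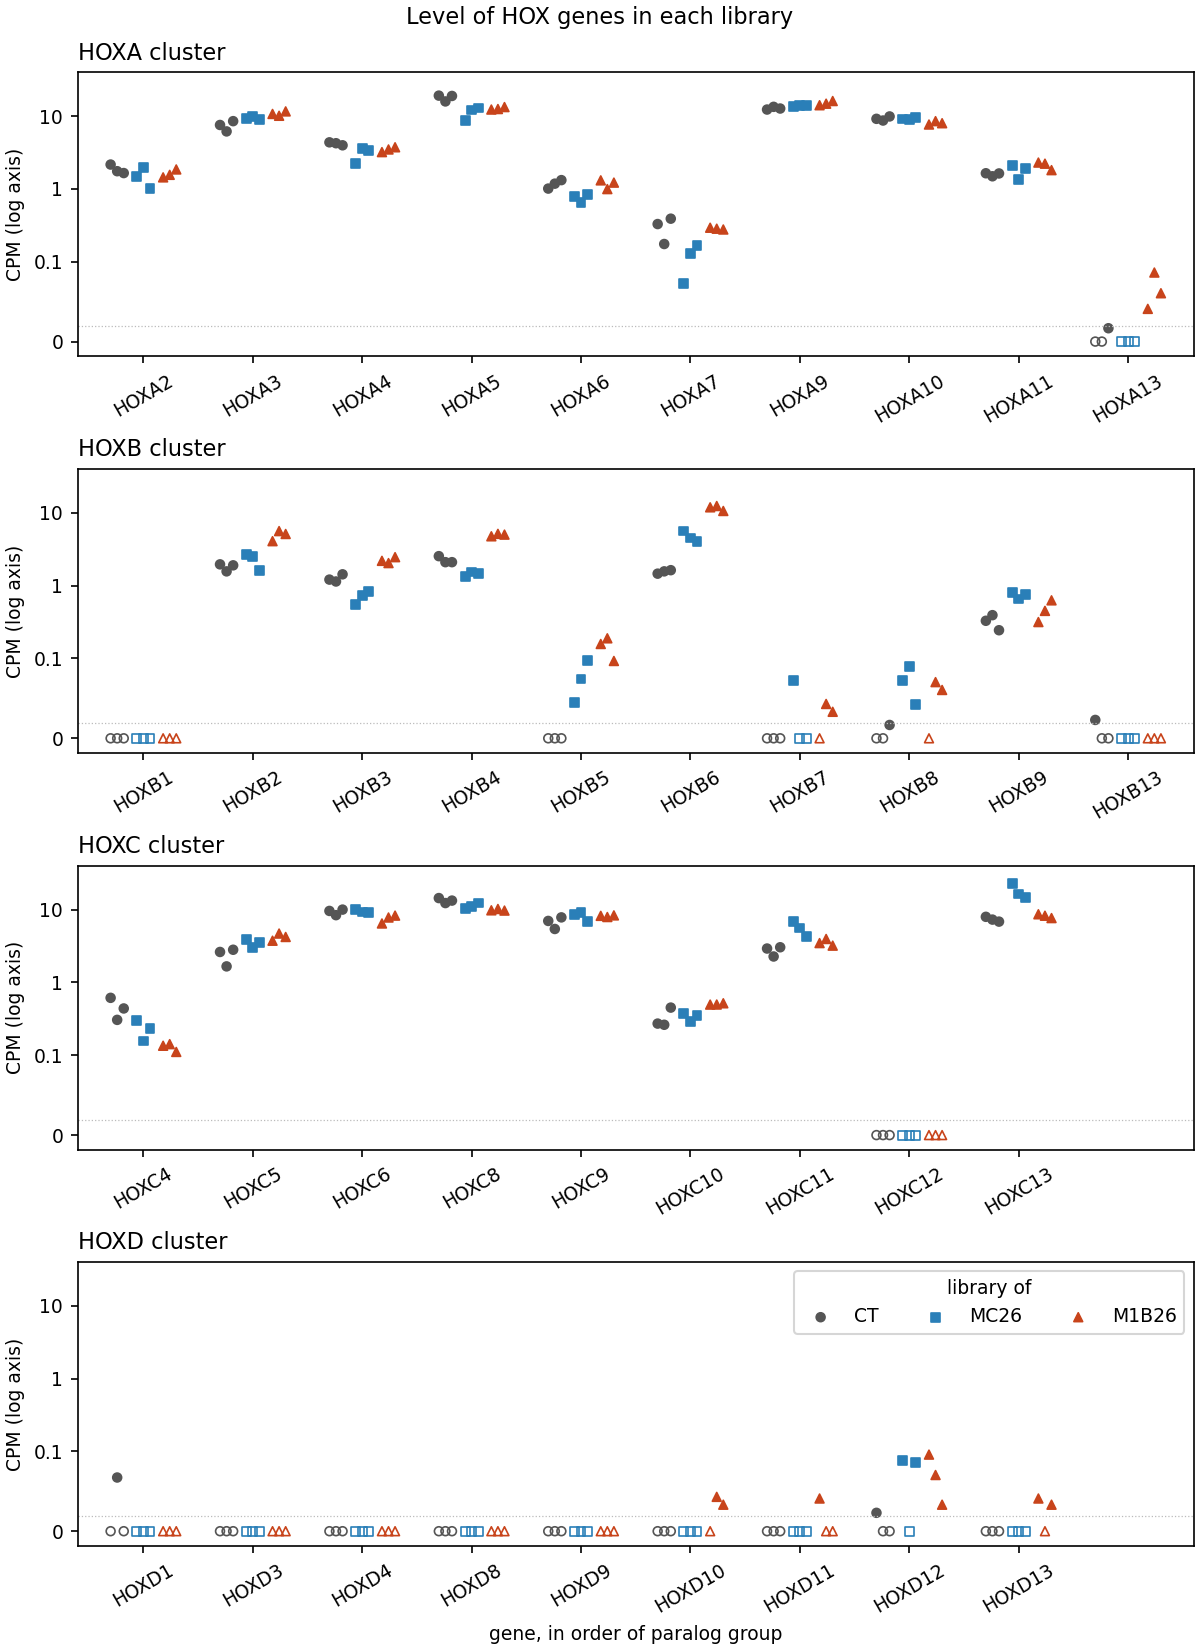
CPM of 38 HOX genes in each of the 9 libraries on a log axis, by cluster and in order of paralog group, with circles for CT, squares for MC26 and triangles for M1B26. Open symbols below the dotted line are libraries with 0 counts; HOXB6 climbs from 1.46 to 1.63 CPM in CT to 10.6 to 12.4 in M1B26, and no HOXD gene passes 0.0902 CPM.

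The filter on low counts (10 counts at the median library size, 0.229 CPM, in at least 3 libraries) was passed by 23 of the 39 members: 10 in HOXA, 5 in HOXB, 8 in HOXC and 0 in HOXD. HOXA7 reached it in 2 CT, 0 MC26 and 3 M1B26 libraries and HOXC4 in 3, 2 and 0, so that these members were tested through the lines in which they were high. edgeR's quasi-likelihood test over 15717 genes (Benjamini-Hochberg adjusted p under 0.05) called 11 of the 23 in MC26 against CT, 4 higher and 7 lower, beside 38.7% of all genes (18.8% higher and 19.9% lower). That split was not stable: it was 6 higher and 3 lower without CT replicate 3, 4 and 4 without CT replicate 1 or without MC26 replicate 1, and 7 and 3 with DESeq2. In M1B26 against CT 11 were called, 7 higher and 4 lower, beside 48.9% of all genes (25.2% higher and 23.7% lower). In M1B26 against MC26 9 were called, 6 higher and 3 lower, beside 39.5% of all genes (21.2% higher and 18.4% lower). As shares of the tested members these counts are 47.8%, 47.8% and 39.1%, close to the background in both M1B26 comparisons, and no result about HOX genes as a whole is read from them. Without MC26 replicate 1 the third count fell to 5. The comparisons share libraries, and each is given on its own values.

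**Figure D3:**
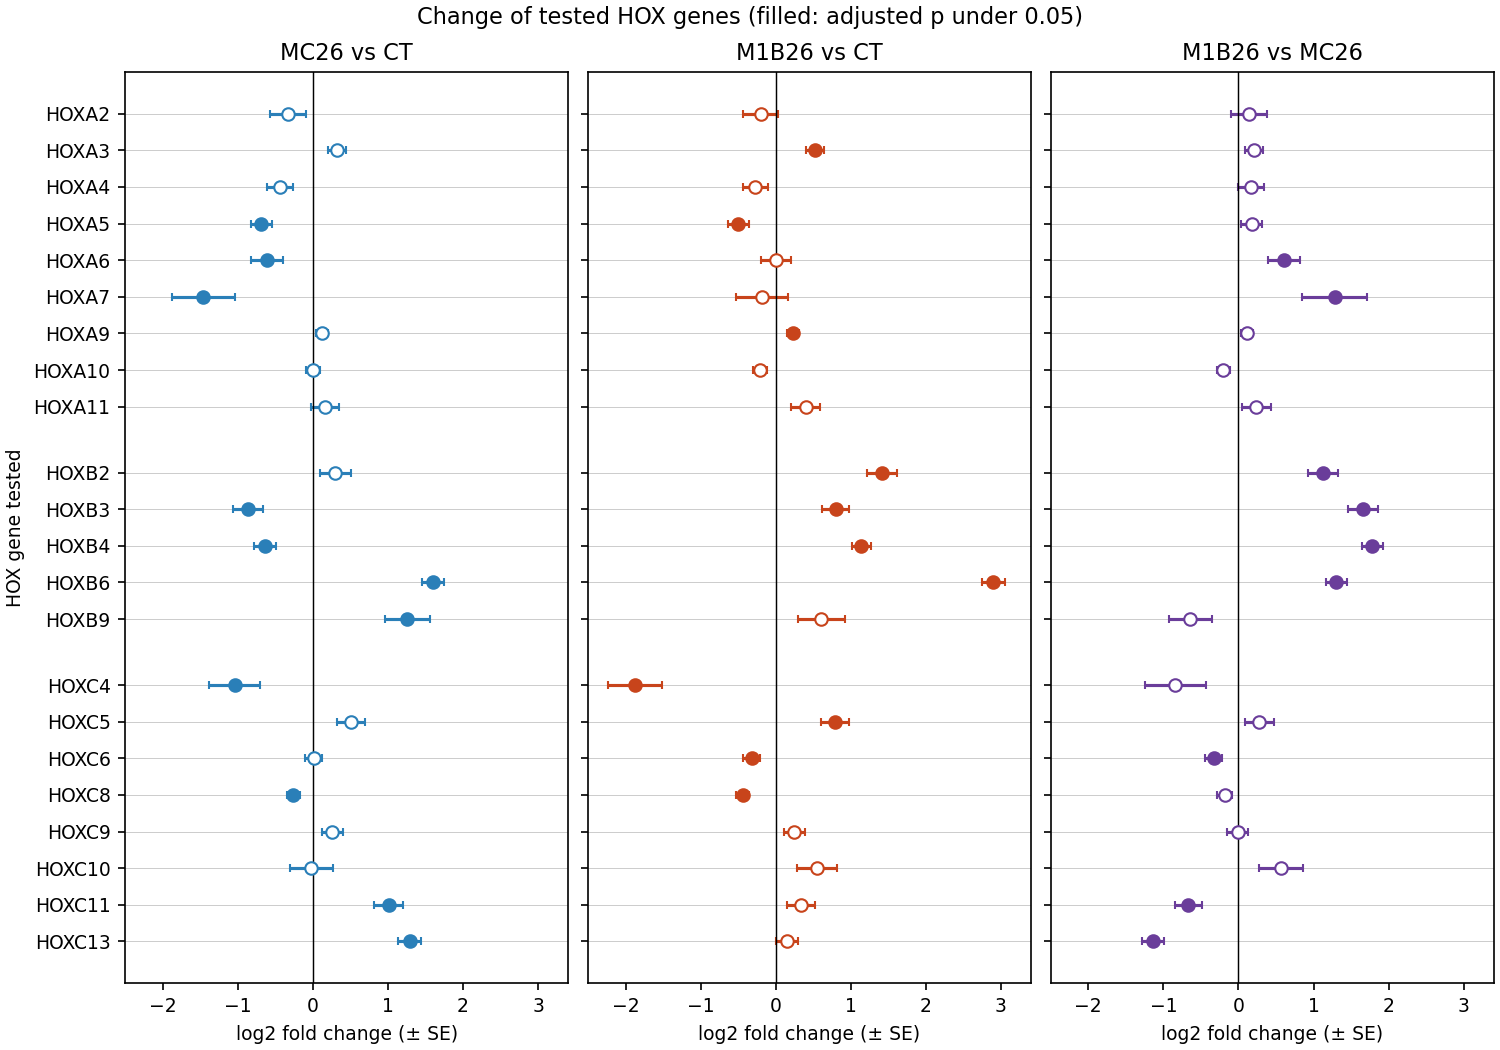
log2 fold change (± SE) of 22 tested HOX genes in 3 comparisons, with filled symbols for an adjusted p under 0.05 in edgeR's quasi-likelihood test. HOXB6 lies at 1.60, 2.90 and 1.30, HOXB3 and HOXB4 change side between the first and second panels, and HOXC4 is lowest in the second at -1.87.

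HOXB differed between all 3 lines. Of its 5 tested genes, 2 were higher and 2 lower in MC26 than in CT, and 4 were higher and 0 lower in M1B26, against CT as well as against MC26. These 4 genes were HOXB2, HOXB3, HOXB4 and HOXB6. The median log2 fold change of the 5 was 0.30, 1.14 and 1.30 in the 3 comparisons, beside 0.00 for all genes. HOXB lies on chromosome 17, whose 843 tested genes had medians of 0.00, 0.48 and 0.48. On that chromosome 19.6% of genes were higher and 23.0% lower in MC26 against CT. In M1B26 64.4% were higher than in CT and 6.64% lower, and 67.0% were higher than in MC26 and 2.61% lower. Called rises of HOXB genes in M1B26 therefore stand beside a background in which most chromosome 17 genes were called higher.

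HOXB6, a central gene best known from limb, lung and blood cell development, was at 1.46, 1.57 and 1.63 CPM in CT, 5.64, 4.50 and 4.02 in MC26 and 11.9, 12.4 and 10.6 in M1B26. All 3 lines were apart from each other. Its log2 fold change was 1.60 ± 0.15 (SE) in MC26 (adjusted p = 1.76e-05) and 2.90 ± 0.15 in M1B26 against CT (adjusted p = 2.09e-07), which is 3.03-fold and 7.47-fold. M1B26 was also above MC26 by 1.30 ± 0.14 (adjusted p = 4.98e-05). It was the 1 member called higher in both lines than in CT, and in M1B26 it ranked 11 of the 843 genes of chromosome 17. HOXB6 shares 16.6% of its exonic bases with HOXB3 on its own strand, so some reads could belong to either. HOXB3 fell in MC26 and rose in M1B26 against CT. The part of shared reads in the HOXB6 rise was not tested. Another 16.3% of the HOXB6 bases lie opposite HOXB-AS3, which had mean CPM of at most 0.0216 in a line.

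HOXB3 and HOXB4 went opposite ways in the 2 lines. HOXB4, used experimentally to expand blood stem cells, was at 2.54, 2.10 and 2.10 CPM in CT, 1.34, 1.54 and 1.46 in MC26 and 4.76, 5.14 and 5.02 in M1B26, with no overlap between lines. It fell in MC26 with a log2 fold change of -0.64 ± 0.15 (adjusted p = 0.00537) and rose in M1B26 by 1.14 ± 0.13 (adjusted p = 5.85e-05). HOXB3, an anterior gene of hindbrain and pharyngeal development, was at 1.21, 1.14 and 1.43 CPM in CT, 0.547, 0.732 and 0.824 in MC26 and 2.19, 2.04 and 2.46 in M1B26. It was again lowest in every MC26 library and highest in every M1B26 library, with log2 fold changes of -0.86 ± 0.20 (adjusted p = 0.00700) and 0.80 ± 0.18 (adjusted p = 0.00421) against CT. Between the derived lines the difference was 1.66 ± 0.20 for HOXB3 (adjusted p = 1.22e-04) and 1.78 ± 0.14 for HOXB4 (adjusted p = 8.86e-06).

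HOXB2, a hindbrain gene that HOXB1 is known to switch on in the embryo, was at 1.96, 1.57 and 1.90 CPM in CT, 2.69, 2.48 and 1.62 in MC26 and 4.08, 5.61 and 5.12 in M1B26. MC26 overlapped CT while M1B26 lay above both, with log2 fold changes of 1.42 ± 0.20 against CT (adjusted p = 1.87e-04) and 1.13 ± 0.20 against MC26 (adjusted p = 0.00134). HOXB9, the mammary group 9 gene of the cluster, followed another course at 0.329, 0.393 and 0.244 CPM in CT, 0.796, 0.654 and 0.753 in MC26 and 0.316, 0.450 and 0.628 in M1B26. It rose in MC26 by 1.26 ± 0.30 on the log2 scale (adjusted p = 0.00731). M1B26 overlapped CT and lay below MC26, at 0.61 against CT (adjusted p = 0.125) and -0.64 against MC26 (adjusted p = 0.0981), neither of which passed.

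Removing the median of its chromosome from each gene asks how far HOXB stood from its neighbours on chromosome 17. In M1B26 against CT 3 of 5 HOXB genes were then still higher and 0 lower, beside 22.9% of all genes higher: HOXB2 at 0.95 (adjusted p = 0.00261), HOXB4 at 0.66 (adjusted p = 0.00215) and HOXB6 at 2.43 (adjusted p = 7.04e-07). HOXB3, at 0.33 (adjusted p = 0.164), no longer passed. Against MC26 4 were higher and 1 lower, beside 19.2% and 17.8% of all genes. HOXB9 was the lower one, at a log2 difference of -1.11 (adjusted p = 0.0114) from a chromosome on which most genes were higher in M1B26. In MC26 against CT, where HOXB3 and HOXB4 fell, the median of chromosome 17 was 0.00.

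**Figure D4:**
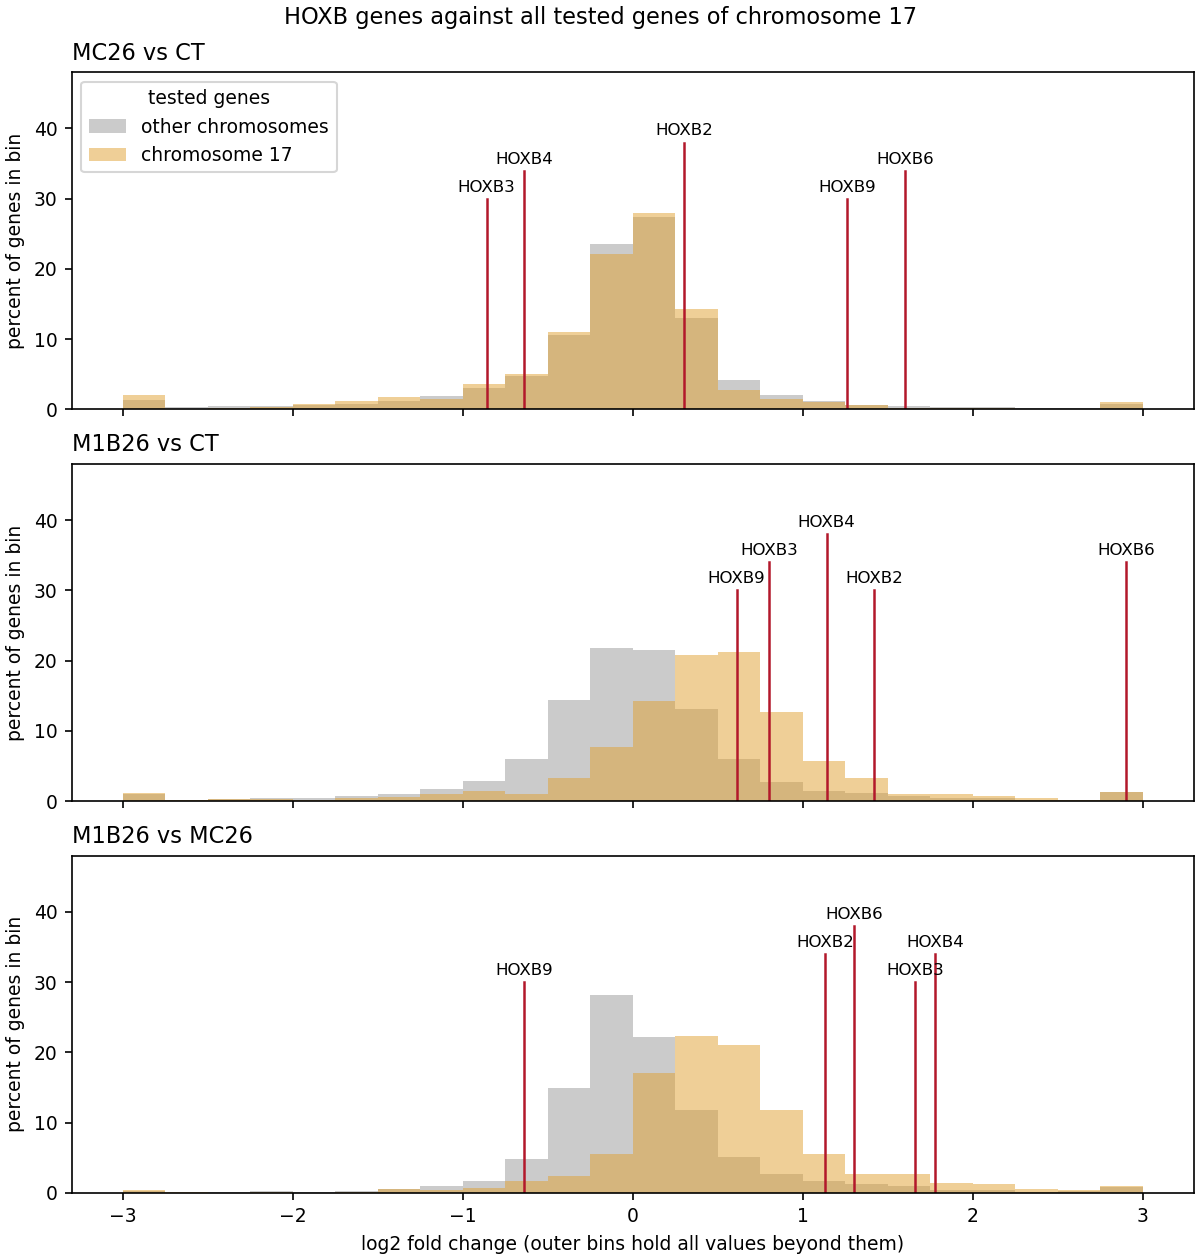
Percent of tested genes by log2 fold change for chromosome 17 and for the other chromosomes, with a line at each tested HOXB gene; the outer bins hold all values beyond them. In both M1B26 comparisons the chromosome 17 genes are shifted to a median of 0.48, HOXB6 at 2.90 and HOXB4 at 1.78 are the highest HOXB lines, and HOXB9 at -0.64 lies left of its chromosome in the last panel.

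Genes beside HOXB moved with chromosome 17. Within 500 kb of the cluster 8 other genes were tested, of which 8 were higher in M1B26 than in CT with a median log2 fold change of 0.62, and 2 were higher in MC26 with a median of 0.06. The nearest were CALCOCO2 at 0.58 ± 0.07 (adjusted p = 8.93e-05), ATP5MC1 at 0.80 ± 0.09 (adjusted p = 3.44e-05) and UBE2Z at 0.41 ± 0.06 (adjusted p = 1.71e-04) in M1B26 against CT. In MC26 these were at 0.13, -0.15 and 0.00, none of which passed. HOXB-AS1, a transcript opposite the HOXB2 and HOXB3 interval, was at 0.243, 0.306 and 0.122 CPM in CT, 0.199, 0.105 and 0.188 in MC26 and 0.541, 0.497 and 0.369 in M1B26, a rise of 1.19 ± 0.37 over CT (adjusted p = 0.0192). It reached the filter in 2 CT, 0 MC26 and 3 M1B26 libraries and so was tested through the lines in which it was high.

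The remaining HOXB genes were close to undetected. HOXB1 had 0 counts in every library, HOXB7 2 counts in MC26 and 2 in M1B26, HOXB8 1, 6 and 4 counts in CT, MC26 and M1B26, and HOXB13, the prostate gene, 1 count in CT. HOXB5 was the exception, with 0, 0 and 0 counts in CT, 1, 2 and 4 in MC26 and 7, 8 and 5 in M1B26. Its 20 counts in M1B26 (95% Poisson interval 12.2 to 30.9, counting error only) were 8.28-fold above CT when 3 counts over the CT group were taken as the floor. That ratio is not a lower bound, since it takes the 20 counts as exact and 0 counts in CT allow up to 3.69. It did not pass the filter. With no filter edgeR gave an adjusted p of 1.01e-04 in M1B26 and 0.0138 in MC26 against CT.

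In HOXA, none of the 10 tested genes was called higher and 3 lower in MC26 than in CT, 2 higher and 1 lower in M1B26, and 2 higher and 0 lower in M1B26 than in MC26. The shares called, 3 of 10, 3 of 10 and 2 of 10, were below the 38.7%, 48.9% and 39.5% of all genes. HOXA5 was at 19.1, 15.9 and 18.9 CPM in CT, 8.60, 12.1 and 12.9 in MC26 and 12.3, 12.5 and 13.3 in M1B26. Every library of both derived lines was below every CT library, and the derived lines overlapped, with log2 fold changes of -0.69 ± 0.14 (adjusted p = 0.00260) and -0.50 ± 0.14 (adjusted p = 0.00999). HOXA3, a gene of thymus and parathyroid development, was at 7.55, 6.16 and 8.52 CPM in CT, 9.25, 9.91 and 8.96 in MC26 and 10.7, 10.1 and 11.6 in M1B26. The lines did not overlap, but only M1B26 passed, at 0.53 ± 0.12 (adjusted p = 0.00365), beside 0.32 in MC26 (adjusted p = 0.0525).

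HOXA6 and HOXA7, central neighbours, were lowest in MC26. HOXA6 was at 1.01, 1.18 and 1.32 CPM in CT, 0.796, 0.654 and 0.847 in MC26 and 1.31, 0.994 and 1.22 in M1B26, and HOXA7 at 0.329, 0.175 and 0.390, 0.0497, 0.131 and 0.165, and 0.293, 0.284 and 0.277. Both overlapped between CT and M1B26 and in neither gene did MC26 reach the other lines. Against CT the log2 fold change in MC26 was -0.61 ± 0.21 for HOXA6 (adjusted p = 0.0383) and -1.46 ± 0.42 for HOXA7 (adjusted p = 0.0177). HOXA7 rested on 23, 4 and 32 counts in CT and 2, 5 and 7 in MC26. The HOXA6 call was lost without CT replicate 2, CT replicate 3, MC26 replicate 1 or MC26 replicate 2 (adjusted p 0.0596 to 0.149), and that of HOXA7 without CT replicate 1, CT replicate 3 or MC26 replicate 1 (0.0566 to 0.0825).

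HOXA9, a group 9 gene with a role in mammary growth and in blood stem cells, was at 12.3, 13.4 and 12.7 CPM in CT, 13.7, 13.8 and 14.1 in MC26 and 14.1, 14.8 and 16.1 in M1B26. The M1B26 libraries lay above CT by 0.23 ± 0.08 on the log2 scale (adjusted p = 0.0349), a call lost without CT replicate 1, CT replicate 3, M1B26 replicate 2 or M1B26 replicate 3 (adjusted p 0.0615 to 0.134) and with plain total counts (adjusted p = 0.218). Called in no comparison were HOXA2, with mean CPM of 1.85, 1.48 and 1.62 in CT, MC26 and M1B26, HOXA4 4.19, 3.09 and 3.47, HOXA10 9.25, 9.26 and 8.05, and HOXA11 1.59, 1.78 and 2.11. HOXA13, the most posterior gene of the cluster, had 1, 0 and 6 counts in the 3 lines and no test. Within 500 kb of HOXA, 4 of 7 other tested genes were lower in MC26 and 3 in M1B26 than in CT, beside 19.9% and 23.7% of all genes. Most of the 7 were non-coding transcripts inside the cluster, among them HOTAIRM1, lower in MC26, and HOXA-AS2, lower in both lines. Outside the cluster, SKAP2 was at -0.92 and -1.03 (adjusted p = 3.35e-05 and 9.97e-06).

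HOXC13 and HOXC11, at the posterior end of HOXC, rose in MC26. Of 8 tested genes 2 were higher and 2 lower in MC26 than in CT, 1 higher and 3 lower in M1B26, and 0 higher and 3 lower in M1B26 than in MC26. That makes 4, 4 and 3 called of 8, beside 38.7%, 48.9% and 39.5% of all genes, so no result on the cluster as a whole is read from them. Neither of the genes lower in MC26 was called without CT replicate 1, CT replicate 3 or MC26 replicate 2. HOXC13, a regulator of hair and nail keratins, was at 7.96, 7.29 and 6.84 CPM in CT, 22.8, 16.4 and 14.8 in MC26 and 8.63, 8.24 and 7.65 in M1B26. CT and M1B26 overlapped and MC26 was above both, at 1.29 ± 0.15 against CT (adjusted p = 7.39e-05), and M1B26 lay at -1.14 ± 0.15 against MC26 (adjusted p = 2.01e-04). In MC26 it made up 31.9% of the CPM of its cluster, beside 17.3% in CT. HOXC11 was at 2.92, 2.27 and 3.04 CPM in CT, 6.94, 5.60 and 4.31 in MC26 and 3.47, 3.95 and 3.20 in M1B26, and rose in MC26 by 1.01 ± 0.19 (adjusted p = 0.00159). All lines were apart, though M1B26 did not pass against CT, at 0.34 (adjusted p = 0.154). The difference of M1B26 from MC26, -0.67 ± 0.18 (adjusted p = 0.0143), was lost without MC26 replicate 1 or M1B26 replicate 3 (adjusted p = 0.0603 and 0.0540).

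HOXC13-AS, a non-coding transcript opposite the start of HOXC13, had the same order of lines as HOXC13. It was at 0.772, 0.743 and 1.15 CPM in CT, 6.64, 5.31 and 3.95 in MC26 and 1.74, 2.15 and 1.96 in M1B26. Against CT it rose by 2.53 ± 0.23 on the log2 scale in MC26 (adjusted p = 1.57e-05), and by 1.09 ± 0.24 for M1B26 (adjusted p = 0.00322). The pair shares exonic bases, 7.3% of those of HOXC13, so some reads could belong to either.

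The central HOXC genes went different ways. HOXC4 was at 0.614, 0.306 and 0.439 CPM in CT, 0.298, 0.157 and 0.235 in MC26 and 0.135, 0.142 and 0.111 in M1B26, the last on 6 counts in each library. The lines did not overlap, and HOXC4 fell in MC26, at -1.04 ± 0.34 on the log2 scale (adjusted p = 0.0307), as well as in M1B26, at -1.87 ± 0.36 (adjusted p = 0.00149). The MC26 call was lost without CT replicate 1, CT replicate 3, MC26 replicate 2 or MC26 replicate 3 (adjusted p 0.0618 to 0.170). HOXC5, which shares the promoter window printed above, was at 2.62, 1.66 and 2.81 CPM in CT, 3.90, 2.98 and 3.53 in MC26 and 3.74, 4.69 and 4.21 in M1B26. It went the other way from HOXC4, up by 0.79 ± 0.19 in M1B26 (adjusted p = 0.00517), with 0.51 in MC26 not passing (adjusted p = 0.0531).

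HOXC8 was at 14.4, 12.3 and 13.3 CPM in CT, 10.4, 10.9 and 12.3 in MC26 and 9.78, 10.2 and 9.70 in M1B26. M1B26 was below both other lines in every library, at -0.44 ± 0.09 against CT (adjusted p = 0.00298). In MC26 the value of -0.26 was at the threshold (adjusted p = 0.0499) and did not pass without CT replicate 1 or 3, MC26 replicate 1 or 2, or any M1B26 replicate (adjusted p 0.0607 to 0.213). HOXC6 was at 9.59, 8.39 and 10.0 CPM in CT, 9.92, 9.26 and 9.15 in MC26 and 6.45, 7.79 and 8.27 in M1B26. The M1B26 libraries were the lowest 3, at -0.32 ± 0.11 against CT (adjusted p = 0.0358). That call was lost without CT replicate 1, CT replicate 3, MC26 replicate 2, M1B26 replicate 1 or M1B26 replicate 2 (adjusted p 0.0567 to 0.144). HOXC9 (mean CPM 6.74, 8.21 and 8.15 in CT, MC26 and M1B26) and HOXC10 (0.328, 0.338 and 0.503) were called in no comparison, and HOXC12 had 0 counts.

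HOXD, the cluster best known for shaping limbs and digits, had 20 counts in all 9 libraries together out of 53040 HOX counts. HOXD3, HOXD4, HOXD8 and HOXD9 had 0 counts everywhere, which allows up to 3 counts in a library. HOXD1 had 1 count in CT, HOXD10, HOXD11 and HOXD13 had 2, 1 and 2 in M1B26, and HOXD12 had 1, 6 and 7 in CT, MC26 and M1B26 with no more than 4 in a library. Summed over the cluster these were 2, 6 and 12 counts in CT, MC26 and M1B26, a difference that was not tested. With no filter, 0 of the 5 HOXD genes with a count were called in any comparison. Of the group 9 genes, HOXA9 and HOXC9 were thus well expressed, HOXB9 low and HOXD9 not detected. The cluster is flanked by expressed genes: MTX2 was at mean CPM of 41.4, 43.7 and 44.8 and LNPK at 40.7, 43.0 and 38.0 in CT, MC26 and M1B26, and 1 of 4 tested genes within 500 kb was called in any comparison, LINC01116 in M1B26 against CT.

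By position along the clusters, of 8 tested posterior genes (groups 9 to 13) 3 were higher and 0 lower in MC26 than in CT, beside 18.8% and 19.9% of all genes, and the 3 were HOXB9, HOXC11 and HOXC13. Of 10 central genes (groups 4 to 8) 1 was higher and 6 lower. The central count depended on single libraries: it was 2 higher and 2 lower without CT replicate 3, where only HOXA5 and HOXB4 were still lower, and 1 higher and 3 lower without CT replicate 1 or without MC26 replicate 1. Of 5 anterior genes (groups 1 to 3) 0 were higher and 1 lower, which was HOXB3. The medians were 0.21, -0.52 and 0.13 on the log2 scale, beside 0.00 for all genes. In M1B26 against CT the counts were 1 higher and 0 lower for posterior, 3 and 4 for central and 3 and 0 for anterior genes, beside 25.2% and 23.7% of all genes, with medians of 0.30, -0.23 and 0.53. The anterior rises were HOXA3 and, on chromosome 17, where 64.4% of genes were higher, HOXB2 and HOXB3. Among the 3 anterior genes outside HOXB, 1 was higher and 0 lower, with a median of 0.17. Leaving out HOXB, 0 central genes were higher and 5 lower of 8 in MC26, beside 19.9% of all genes lower. In M1B26 1 was higher and 4 lower of 8, beside 23.7% lower. The central falls include HOXA7 in MC26 and HOXC4 in both lines. These genes were tested through the lines in which they were high, so the filter favoured their falls. Of the 21 other tested members, 4 were higher and 5 lower in MC26 against CT. In neither comparison with CT did all tested genes of a class move the same way. In M1B26 against MC26 the 5 anterior genes all had log2 fold changes above 0 (0.04 to 1.66), with 2 called higher. These 2 were HOXB2 and HOXB3, on chromosome 17, whose median was 0.48. The 3 anterior genes outside HOXB lay at 0.04 to 0.21, with 0 called.

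Genes that work with or on HOX genes were read from lists chosen for their known roles. Among TALE cofactors, 8 of 9 were tested, with 0 higher in any comparison and 2 lower in MC26 and 4 in M1B26 than in CT, beside 19.9% and 23.7% of all genes lower, so that the MC26 share was near that of all genes. PBX4 fell in both lines, at -1.39 and -1.06, though it reached the filter in 3 CT, 1 MC26 and 2 M1B26 libraries and so was tested partly through CT. MEIS1 fell in M1B26, at -0.38, and MEIS3 fell there from a mean of 1.04 to 0.529 CPM. PBX3 and MEIS2 were called in no comparison.

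Of 21 genes of the CDX and retinoid list, 12 were tested. In MC26 against CT 3 were higher and 2 lower, and in M1B26 6 were higher and 2 lower. This is 41.7% and 66.7% of the 12, beside 38.7% and 48.9% of all genes, so that MC26 was near the background. ALDH1A1, an enzyme that makes retinoic acid, had 0 counts in the CT libraries, 41, 32 and 43 in MC26 and 468, 848 and 335 in M1B26. Against the CT floor of 3 counts over the group it was 55.9-fold higher in MC26 and 684-fold higher in M1B26. ALDH1A2, of the same family, had 4, 2 and 3 counts in CT, 7, 4 and 17 in MC26 and 16, 12 and 35 in M1B26. It reached the filter in 0, 1 and 3 libraries, so it was tested through the line in which it was high. ALDH1A3 rose in M1B26 (0.80 ± 0.27, adjusted p = 0.0286), as did CRABP2, which carries retinoic acid to the nucleus (1.30 ± 0.24, adjusted p = 0.00113). RARG, a retinoic acid receptor, fell, at -0.31 ± 0.08 in MC26 against CT (adjusted p = 0.00915) and at -0.54 ± 0.08 in M1B26 (adjusted p = 2.24e-04). CDX1, CDX2 and CDX4, the classical activators of central HOX genes, had 0 counts in all libraries.

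Of 21 trithorax and polycomb genes, all tested, 3 rose and 4 fell in MC26, and 7 rose and 7 fell in M1B26, both against CT. These are 33.3% and 66.7% of the list, below the 38.7% of all genes called in MC26 and above the 48.9% called in M1B26. CBX7, a polycomb reader, fell in both lines, at -0.90 ± 0.13 in MC26 against CT (adjusted p = 4.21e-04) and -1.14 ± 0.13 for M1B26 (adjusted p = 5.52e-05). RNF2, the enzyme that marks histone H2A, rose by 0.36 ± 0.07 and 0.63 ± 0.07 (adjusted p = 0.00185 and 2.85e-05). KMT2A, the trithorax methyltransferase classically tied to HOX genes, fell in M1B26 (-0.56 ± 0.12, adjusted p = 0.00231). PCGF2 and CBX8 rose in M1B26 by 0.61 ± 0.09 and 0.37 ± 0.10 (adjusted p = 2.49e-04 and 0.00811).

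Of 18 non-coding genes of the clusters 9 were tested, of which 1 rose and 3 fell in MC26 and 2 rose and 1 fell in M1B26, both against CT, or 44.4% and 33.3% beside 38.7% and 48.9% of all genes. HOTAIRM1, a transcript of the HOXA cluster, was at 8.03, 7.08 and 7.04 CPM in CT, 4.60, 5.26 and 5.20 in MC26 and 6.43, 7.62 and 6.81 in M1B26, a log2 fold change in MC26 of -0.56 ± 0.11 (adjusted p = 0.00290). HOXA-AS2 fell in both lines, at -0.96 ± 0.17 and -0.85 ± 0.16 (adjusted p = 0.00107 and 0.00144). HOTAIR, transcribed from HOXC, was at mean CPM of 0.846, 0.978 and 0.606 and was called in no comparison.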

How the data were processed

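The authors sequenced poly-A RNA of CT, MC26 and M1B26 (3 libraries each, grouped by sample title) in paired-end mode and aligned reads to GRCh38 with STAR 2.7.3a and GENCODE v33. They name Salmon 1.1.0, with the protein-coding genes of GENCODE v33, for the quantification of expression. The deposited table held unnormalised read counts, with 1 row per gene symbol. That table also holds non-coding genes, so whether Salmon made it is not clear. The strand setting and the handling of multi-mapped reads are not given in the sources used here. The labels and the methods give different BMP2 and IL6 doses, so none is stated.

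Counts were fitted with edgeR 4.0.16 (quasi-likelihood, TMM, filterByExpr with a minimum count of 10, R 4.3.3) on all 9 libraries with group as the only term, and p-values were adjusted over 15717 genes by the Benjamini-Hochberg method, with calls at 0.05. The biological coefficient of variation was 10.4%. SE was the absolute log2 fold change over the square root of F. The fit was tested on simulated data. No pair of libraries of a line agreed within sampling noise (chi-square per degree of freedom 10.9 to 57.9). Alternatives were DESeq2 1.42.0, scaling by RLE or by total counts alone, omitting the filter, requiring a mean of 50 counts, only the 6 libraries compared, a replicate block, an adjusted p under 0.01, glmTreat at 1.5-fold, removal of chromosome medians and leaving out each library. Positions and exonic lengths came from GENCODE v44 on GRCh38, promoter sequences from RefSeq (GRCh38.p14). Members with no window in that table included HOXA5, HOXB2, HOXB3, HOXB4, HOXB5, HOXB6, HOXB7, HOXB8, HOXB9, HOXB13, HOXC6, HOXC8, HOXC9, HOXC10, HOXC11, HOXC12, HOXC13 and HOXD9, and protein sequences were not analysed here.

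Members called in at least 1 comparison are given with the CPM of each library, those not called by group means, those not tested by counts. Of the lists, called genes with the largest changes are named, up to 4 a list and comparison, and up to 4 flanking genes nearest to a cluster. Some genes of these sets are not reported here. Members and lists were chosen with earlier results of these data known.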

Additional observations from a re-analysis of the deposited data

Results flagged for a closer look

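For 9 HOX genes the change from CT differed between MC26 and M1B26 by the direct test of the lines against each other (edgeR's quasi-likelihood test, adjusted p under 0.05). The log2 difference, M1B26 minus MC26, was 1.78 for HOXB4, 1.66 for HOXB3, 1.30 for HOXB6 and 1.13 for HOXB2, and in every library of M1B26 these genes were above every library of MC26. Chromosome 17, which holds them, had a median of 0.48 in the same comparison.

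HOXA7 differed by 1.28 ± 0.43 (adjusted p = 0.0369) and HOXA6 by 0.61 ± 0.21 (adjusted p = 0.0369), with M1B26 close to CT in both. The HOXA7 call was lost without CT replicate 1, MC26 replicate 1, MC26 replicate 2 or any M1B26 replicate (adjusted p 0.0589 to 0.130), and the HOXA6 call without CT replicate 1, MC26 replicate 1, MC26 replicate 2, M1B26 replicate 1 or M1B26 replicate 3 (0.0502 to 0.128).

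Lower in M1B26 than in MC26 were HOXC13 at -1.14, HOXC11 at -0.67 and HOXC6 at -0.33. The HOXC6 call was lost without CT replicate 1, any MC26 replicate, M1B26 replicate 1 or M1B26 replicate 2 (adjusted p 0.0507 to 0.142).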

How the results depend on the processing

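Over the 19 alternatives, 0 of the calls of single HOX genes reversed. Of 31 calls (gene and comparison), 11 held in every alternative that gave a value, among them the HOXB6 calls in all 3 comparisons, 9 were lost only at an adjusted p under 0.01 or under glmTreat at 1.5-fold, and 11 were lost elsewhere. Of 38 pairs not called, 6 passed in some alternative. The number of HOX genes called fell under glmTreat from 11 to 2 in MC26 against CT, from 11 to 4 in M1B26 against CT and from 9 to 5 in M1B26 against MC26, and for HOXB in MC26 against CT from 4 to 1. At an adjusted p under 0.01 it fell to 7 in MC26 against CT and to 5 in M1B26 against MC26. Both ask for more than the main threshold. The split of the MC26 against CT calls, 4 higher and 7 lower, was 5 and 6 with RLE factors, 6 and 4 with no filter and 7 and 3 with DESeq2, the last among 33 tested members. Leaving out 1 library gave 8 to 10 genes in MC26 against CT, 9 to 12 in M1B26 against CT and 5 to 9 in M1B26 against MC26, the 5 without MC26 replicate 1; the HOXB counts were 4, 4 and 4 to 5. The cause was not tested.

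With a replicate block 9, 10 and 7 genes were called in the 3 comparisons, and 4 HOXB genes in each. Same-numbered libraries of different lines correlated at -0.137 to 0.21, with 3 of 9 pairs over 0.1. Differently numbered ones correlated at -0.201 to 0.193, with 1 of 18 over 0.1. These ranges overlap, and whether replicate numbers pair the libraries stays unsettled. Total counts without scaling factors moved the median of all genes by at most -0.09. Depth limits HOXD and the untested HOXB genes, at 0 to 4 counts in most libraries.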
